A study of Rattus norvegicus with 16 samples.

Results

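Whole rat sciatic nerve 7 days after crush was compared with whole nerve 5 days after crush, across all genes. The comparison uses 4 of the 16 RNA-seq libraries of the series, chosen by their titles, with 2 libraries at each day. Whole nerve means that RNA was taken from the tissue without dissociation, so that Schwann cells, macrophages, fibroblasts, vessels and the other cells of the nerve all contribute. The other libraries hold whole nerve without crush and at day 3, and Schwann cells purified by immunopanning, a capture of cells on antibody-coated dishes, at the same time points. They place the change from day 5 to day 7, and the other 4 whole nerve libraries also enter the fit that tests it, where all 8 share 1 estimate of spread. From the 4 libraries of days 5 and 7 alone, 503 genes were called higher and 496 lower.

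The crushed nerves were injured at postnatal day 18, the animals were given the analgesic carprofen, and only the part distal to the crush was taken. Uncrushed nerves gave the matching segment. At least 10 nerves were pooled for each sample, no sham operation was part of the design, and the labels name neither strain nor sex. The animals were therefore 23 days old at day 5 and 25 days old at day 7, and the effects of 2 more days of age and of 2 more days after crush cannot be told apart. By the same count they were 21 days old at day 3, and the label of uncrushed nerve gives postnatal day 18, so that age and injury also cannot be told apart where levels are set against uncrushed nerve. With 2 pooled samples a group, p-values measure only the spread between such pools, and an exact permutation test of 2 against 2 could not give a p below 0.333.

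A myelinating Schwann cell wraps an axon in compacted membrane that is rich in cholesterol and glycosphingolipids and is held together by a small set of abundant proteins. After a crush the axons distal to the injury degenerate, Schwann cells stop making myelin, divide and take on a repair state, and macrophages enter and clear debris. When axons regrow into the segment, Schwann cells in contact with them leave the cell cycle and make myelin again. In bulk tissue a lower level of a transcript can mean fewer cells of a type or less RNA per cell, and these cannot be told apart.

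The 4 libraries held between 13365985 and 17342011 expected counts, the number of fragments that the RSEM program assigns to genes. The markers that define Schwann cells were present in all of them, with summed levels of 2572 and 2999 FPKM at day 5 and 3612 and 4018 FPKM at day 7. FPKM counts the fragments of a gene per kilobase of transcript and per fixed number of fragments in the library, and it is the unit of every level given here. Transcripts of the mitochondrial genome took 6.24 to 6.39% of counts at day 5 and 7.81 to 8.83% at day 7. No molecular identifiers were added before the cDNA was amplified, so counting precision is that of reads and not of molecules.

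Of 31038 genes, 15831 had enough counts to be tested. At an adjusted p below 0.05 in edgeR's quasi-likelihood test, 578 genes were higher at day 7, which is 3.65% of those tested, and 594 were lower, which is 3.75%. An unadjusted p below 0.05 in that test was found for 3725 genes. The median log2 fold change over all tested genes was 0.01. The median was 1.00 among the genes called higher and -0.60 among the genes called lower, and 289 genes rose while 110 fell by at least 2-fold. Of these calls, 196 fell on loci without a gene name and are not described. Without day 5 replicate 1 the calls numbered 183 higher and 215 lower, without day 5 replicate 2 they numbered 175 and 148, and without day 7 replicate 1 they numbered 232 and 288. Both day 7 libraries lay above both day 5 libraries for 27.1% of all tested genes and below both for 25.8%, and counts of members that do not overlap are read against these shares.

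**Figure D1:**
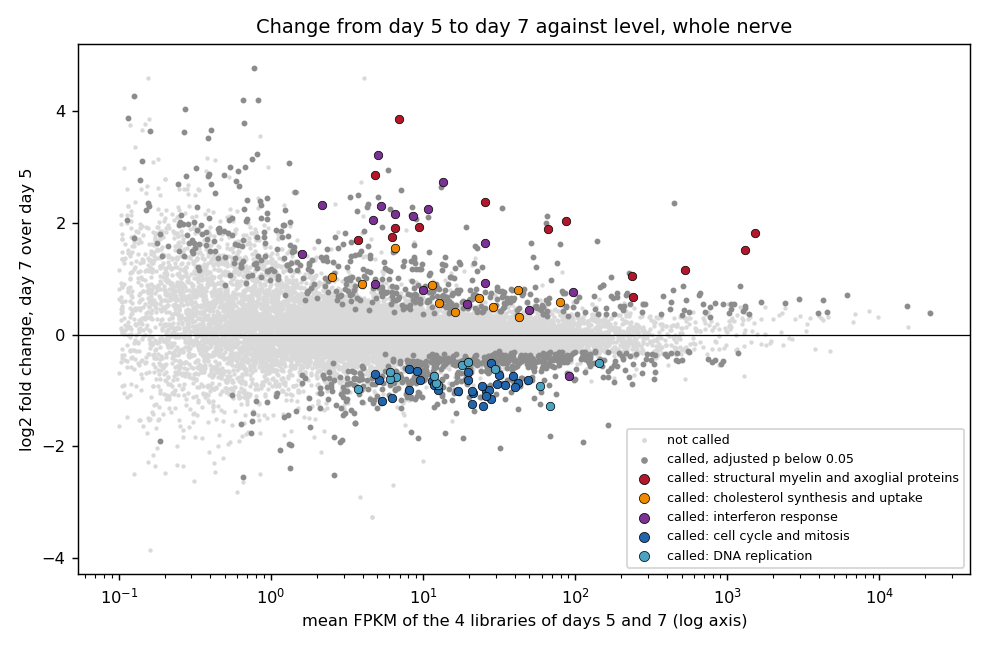
Each point is 1 of 15538 tested genes, with its mean FPKM over the 4 libraries on a log x axis and its log2 fold change from day 5 to day 7 on the y axis; 293 genes with a mean under 0.1 FPKM or beyond the y axis are not drawn. The called genes for structural myelin proteins sit above 0 at every level up to Pmp22, and all called genes of mitosis and DNA replication sit below 0.

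Most listed genes for the structural proteins of myelin and of the contact between Schwann cell and axon rose. Of 20 tested members of this list, 14 were called higher (70%, beside 3.65% of all tested genes) and none lower. The median log2 fold change was 1.61 against 0.01 over all genes, and all 20 fold changes were positive. Both day 7 libraries lay above both day 5 libraries for 18 of the 20, and 13 or 14 members were called when any 1 of the 4 libraries was left out. The summed level of the list was 2269 and 2440 FPKM at day 5 and 5971 and 6629 FPKM at day 7.

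Pmp22, a tetraspan protein of compact myelin, stood at 648 and 697 FPKM at day 5 and at 2185 and 2591 FPKM at day 7 (log2 fold change 1.83 ± 0.14, SE, n = 2 libraries per day, adjusted p = 0.000139). It was high in both day 7 libraries, with no overlap between days. Mbp, which joins the cytoplasmic faces of the membrane, went from 325 and 335 FPKM to 724 and 717 FPKM, a 2.24-fold rise (adjusted p = 0.000116). Pmp2, a fatty acid binding protein of myelin, went from 153 and 153 FPKM to 326 and 306 FPKM, a 2.07-fold rise (adjusted p = 0.000139).

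The list also holds proteins that attach, seal or organise the sheath, and their folds were spread widely. Of the 6 members of the list that did not pass the test, Nfasc, Gjb1, Cadm4, Cntnap1 and Mpp6 had folds from 1.06 to 1.61. Prx, the scaffold that links the outer Schwann cell membrane to the basal lamina, had 7.84 and 8.54 FPKM at day 5 and 44.1 and 41.0 FPKM at day 7 (log2 fold change 2.37 ± 0.16, adjusted p = 8.53e-05). Drp2, the dystrophin-related partner of periaxin, had 1.10 and 1.24 FPKM at day 5 and 8.36 and 8.70 FPKM at day 7 (2.87 ± 0.16, adjusted p = 3.75e-05). For both partners the 2 libraries of each day lay close together and far from those of the other day. Cldn19, the claudin of Schwann cell tight junctions, had 34.0 and 35.4 FPKM at day 5 and 136 and 145 FPKM at day 7 (2.04 ± 0.12, adjusted p = 5.33e-05). Gldn, which gathers sodium channels at the node, had 3.68 and 4.15 FPKM at day 5 and 14.3 and 15.5 FPKM at day 7, a 3.80-fold rise. Mag, an adhesion protein of the membrane next to the axon, rose 3.76-fold, and Mal, a proteolipid of myelin membrane traffic, rose 3.73-fold. The largest fold of the list was that of Ncmap, a small protein of non-compact myelin, with 0.62 and 1.09 FPKM at day 5 and 12.4 and 13.5 FPKM at day 7 (3.87 ± 0.38, adjusted p = 0.000512). This fold starts from a low level. With at least 10 counts required in every library of days 5 and 7, Ncmap was not tested and 13 members were called.

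These levels were still below those of the uncrushed nerve. At day 3, 19 of the 20 members were called lower than in uncrushed nerve, and at day 7, 16 were. In the fit, Pmp22 stood at 2.64% of its uncrushed level at day 5 and at 9.39% at day 7, Prx at 2.40% and 12.5%, and Drp2 at 0.391% and 2.85%. Cldn19 and Mag had come further, to 35.1% and 28.6% at day 7, from 8.56% and 7.61% at day 5. At day 3 Drp2 had read 2.66 and 1.89 FPKM, above its day 5 libraries, and Cldn19 had read 4.96 and 4.05 FPKM, below its day 5 libraries.

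**Figure D2:**
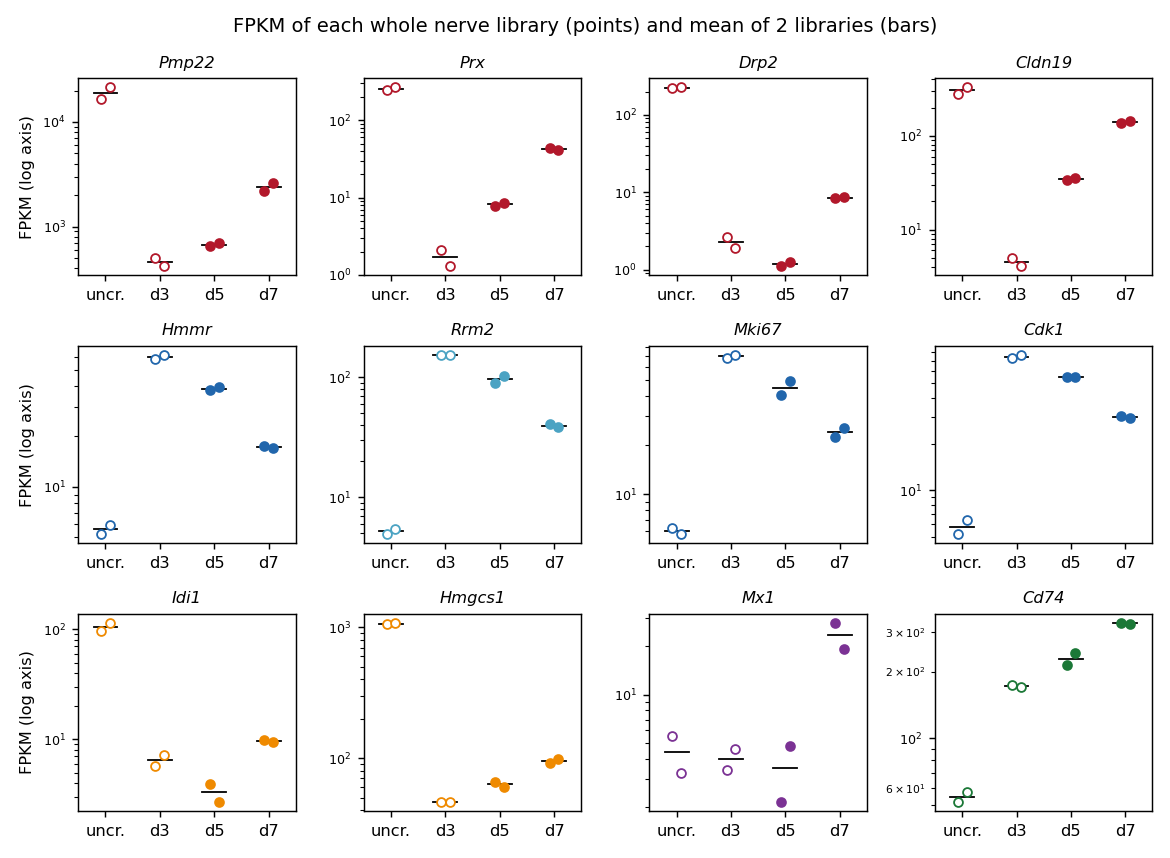
FPKM of 12 genes in each whole nerve library, on log y axes that differ between panels, for uncrushed nerve and days 3, 5 and 7 after crush; points are libraries, filled at days 5 and 7, and bars are means of 2. The myelin genes in the top row rise from day 5 to day 7 and stay below uncrushed nerve, and the genes of division in the middle row fall from a peak at day 3 and stay above uncrushed nerve.

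Of 16 tested transcription factors of the Schwann lineage and of myelination, 2 were called higher and 1 lower (18.8%, beside 7.4% of all tested genes in either direction), with a median log2 fold change of 0.10. Egr2, the factor that drives myelin genes, had 9.41 and 10.9 FPKM at day 5 and 15.7 and 19.6 FPKM at day 7, with no overlap, and rose 1.75-fold (adjusted p = 0.0151). Tead1, the DNA-binding partner of YAP and TAZ, rose 1.39-fold, and Runx2 fell 1.70-fold from 18.7 and 23.2 FPKM to 11.4 and 13.4 FPKM. Each of these calls depended on the libraries used, as Egr2 and Tead1 were called in 1 and Runx2 in 2 of the 4 fits without a library. Sox10, the lineage factor, did not pass the test, with 32.6 and 35.6 FPKM at day 5 and 36.9 and 52.1 FPKM at day 7 (log2 fold change 0.38 ± 0.16, adjusted p = 0.19). Jun, a factor of the repair state, had 38.4 and 40.9 FPKM at day 5 and 35.1 and 45.4 FPKM at day 7 (0.02 ± 0.11).

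Of 24 tested genes of cholesterol synthesis and uptake 11 were called higher (45.8%, beside 3.65% of all tested genes) and none lower. The median log2 fold change was 0.48, and 16 of the 24 did not overlap upward. Idi1, the isopentenyl diphosphate isomerase, had 3.95 and 2.7 FPKM at day 5 and 9.97 and 9.48 FPKM at day 7 (log2 fold change 1.55 ± 0.18, adjusted p = 0.00108). Fdps, the next enzyme of the isoprenoid chain, had 32.0 and 30.02 FPKM at day 5 and 55.9 and 51.4 FPKM at day 7 (0.79 ± 0.09, adjusted p = 0.00113). Hmgcs1, an early enzyme of the pathway, had 65.8 and 60.2 FPKM at day 5 and 91.2 and 98.3 FPKM at day 7 (0.59 ± 0.08, adjusted p = 0.00314). In all 3 enzymes the days did not overlap, and these 3 were the members called in every fit that left out a library. The count for the list fell from 11 to 5 without day 5 replicate 1, to 4 without day 5 replicate 2, and to 6 without either day 7 library. Srebf2, a factor that controls the pathway, did not pass the test, with a log2 fold change of 0.08 ± 0.14. All 24 members were lower than in uncrushed nerve both at day 3 and at day 7, and Hmgcs1 stood at 4.45% of its uncrushed level at day 5 and at 6.69% at day 7.

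The wider list of fatty acid and myelin lipid synthesis was divided. Its shares stand beside 3.65% called higher and 3.75% called lower over all tested genes. Of 22 members 5 were called higher (22.7%) and 3 lower (13.6%), with a median log2 fold change of 0.22, and the count of higher members fell to 2 without day 5 replicate 1 and that of lower members to 0 without day 5 replicate 2. Fa2h, the hydroxylase that makes the 2-hydroxy fatty acids of myelin galactolipids, rose from 2.98 and 3.16 FPKM to 11.9 and 15.3 FPKM (log2 fold change 2.14 ± 0.18, adjusted p = 0.000168). Elovl7, an elongase of long-chain fatty acids, rose from 1.23 and 1.01 FPKM to 5.25 and 7.49 FPKM (2.51 ± 0.32, adjusted p = 0.00182). Both were called in every fit without a library. In the other direction the desaturases Fads1 and Fads2 fell 1.45-fold and 1.58-fold, Fads1 losing its call without day 5 replicate 2 (adjusted p = 0.0595) and Fads2 being called in 2 of 4 such fits. Of the remaining 4 calls, Acly, Acaca and Ugt8 rose and Scd2 fell, by between 1.264-fold and 1.44-fold. The calls of 3 of them were lost whichever library was left out, while Acly was kept in 1 fit. The summed level of the list was lower at day 7, with 2922 and 2826 FPKM at day 5 and 2200 and 2522 FPKM at day 7.

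Other genes with the lowest adjusted p among those that rose were not members of these lists. Col2a1, a fibrillar collagen best known from cartilage, had the lowest adjusted p of all genes, with 1.98 and 2.07 FPKM at day 5 and 11.3 and 13.4 FPKM at day 7 (log2 fold change 2.59 ± 0.13, adjusted p = 2.32e-05). Cryab, a small heat shock protein, had 38.8 and 38.7 FPKM at day 5 and 129 and 110 FPKM at day 7 (1.63 ± 0.12, adjusted p = 0.000106). Emid1 and Tmprss5, a transmembrane serine protease, rose 3.80-fold and 2.33-fold. All 4 were lower at day 3 than in uncrushed nerve, and at day 7 Tmprss5 had reached 99.9% of its uncrushed level in the fit while Cryab stood at 6.88%. Serpina3n, a secreted inhibitor of serine proteases, had another course. It stood at 3.97 and 2.58 FPKM in uncrushed nerve, 3.85 and 3.40 FPKM at day 5 and 21.9 and 23.5 FPKM at day 7 (2.65 ± 0.20, adjusted p = 0.000116). Mt3, a metal-binding metallothionein, rose from 1.44 and 1.24 FPKM to 7.82 and 13.0 FPKM, and Crym from 1.27 and 0.74 FPKM to 5.83 and 5.30 FPKM, the latter without its call when day 5 replicate 2 was left out (adjusted p = 0.0619). Mt3 started from a low level at day 5 and was not tested in every alternative. H3f3c and Col1a2 also met the naming rule and are uncertain. H3f3c belongs to a family of histone genes with nearly the same coding sequence, and how its reads were divided was not tested. Col1a2 was listed at 0 in both day 5 libraries and at 47.9 and 293 FPKM at day 7, and is not read as a change.

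Most listed genes of mitosis fell between day 5 and day 7. All 35 members of the list were tested, and 31 were called lower (88.6%, beside 3.75% of all tested genes) and none higher. The median log2 fold change was -0.88 against 0.01 over all genes. Both day 7 libraries lay below both day 5 libraries for 34 of the 35, and between 21 and 26 members were called when 1 library was left out, with 21 without day 5 replicate 2. The summed level was 873 and 962 FPKM at day 5 and 495 and 500 FPKM at day 7.

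The fall covered several steps of division and was of similar size for most members. Hmmr, which organises the spindle, had 37.8 and 39.4 FPKM at day 5 and 17.5 and 17.1 FPKM at day 7 (log2 fold change -1.16 ± 0.09, adjusted p = 0.000139). Anln, the scaffold of the cleavage furrow, had 26.9 and 32.2 FPKM at day 5 and 12.4 and 12.6 FPKM at day 7 (-1.24 ± 0.10, adjusted p = 0.000173). Cenpf, a protein of the kinetochore, had 32.2 and 37.5 FPKM at day 5 and 14.1 and 14.7 FPKM at day 7 (-1.28 ± 0.12, adjusted p = 0.00047). In all 3 genes both day 7 libraries lay well below both day 5 libraries. Cdk1, the kinase that starts mitosis, had 54.3 and 54.8 FPKM at day 5 and 30.3 and 29.7 FPKM at day 7, a 1.82-fold fall, and its partner Ccnb1 fell 2.00-fold. Mki67, a marker of cycling cells, had 40.8 and 49.1 FPKM at day 5 and 22.4 and 25.6 FPKM at day 7, a 1.88-fold fall, and Top2a, which untangles DNA before division, fell 1.75-fold. All 7 were called in every fit without a library. Outside the list, Mastl, Sgo2, Trip13 and Smc4, which act at mitotic entry, on cohesion, at checkpoints and in condensation, were also among the genes named by rank and fell between 2.05-fold and 2.64-fold.

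Fewer of the DNA replication genes were called, and their median fall was smaller than that of the mitotic list, a difference that was not tested. Of 28 members 13 were called lower (46.4%, beside 3.75% of all tested genes) and none higher. All 28 fold changes were negative, 25 did not overlap, and the median was -0.57. Rrm2, the inducible subunit of ribonucleotide reductase, had 89.1 and 103 FPKM at day 5 and 41.0 and 38.3 FPKM at day 7 (log2 fold change -1.28 ± 0.10, adjusted p = 0.000132). Tk1, the thymidine kinase of S phase, fell 1.88-fold, and Prim1, the primase, fell 1.89-fold. Rrm2, Tk1, Prim1 and Rrm1 were the members called in every fit without a library. Pcna, the sliding clamp, fell 1.42-fold (adjusted p = 0.0149) and was called in 1 of those fits. The count for the list was 6 without day 5 replicate 1, 4 without day 5 replicate 2, and 4 without day 7 replicate 1.

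Transcripts of division were still above those of uncrushed nerve. All 35 mitotic members and all 28 replication members were higher at day 3 than in uncrushed nerve, and 34 and 23 still were at day 7. Cdk1 had 5.19 and 6.45 FPKM in uncrushed nerve and 72.3 and 75.9 FPKM at day 3, and Mki67 had 6.24 and 5.71 FPKM and then 68.7 and 71.1 FPKM. For both genes the libraries of days 3, 5 and 7 did not overlap and were lower at each later day.

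Because the mitotic genes moved as a group, the promoters of 3 members are shown that carried both motifs searched and had the lowest adjusted p. Each line is the 120 bases before the transcription start, 5′ to 3′ on the strand of the gene, from the RefSeq table of the assembly GRCr8, which is not the assembly on which the counts were made. Capitals mark the letters TTTGAA, the core of the cell cycle homology element, and CCAAT, the box bound by NF-Y, each on either strand. The windows are chr10:25665216-25665335 (minus strand) for Hmmr, chr1:199952594-199952713 (minus strand) for Mki67 and chr20:19265173-19265292 (plus strand) for Cdk1.
Hmmr: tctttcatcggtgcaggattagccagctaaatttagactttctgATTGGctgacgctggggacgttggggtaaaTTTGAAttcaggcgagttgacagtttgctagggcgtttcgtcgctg
Mki67: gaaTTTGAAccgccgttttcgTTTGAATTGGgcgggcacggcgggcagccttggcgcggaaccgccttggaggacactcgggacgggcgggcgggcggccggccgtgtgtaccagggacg
Cdk1: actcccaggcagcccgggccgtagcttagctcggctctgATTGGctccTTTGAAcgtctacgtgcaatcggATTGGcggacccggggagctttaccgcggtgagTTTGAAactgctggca
In Mki67 the second TTTGAA runs into a CCAAT box on the other strand, so the 2 motifs share letters there. Over the 250 bases before the start, TTTGAA was found in 12 of the 27 called mitotic members that have a promoter in the table (44.4%), and in 16% of all 27457 promoters. CCAAT was found in 18 of the 27 (66.7%) and in 34.3% of all promoters. A match is a description of letters and not a site of binding.

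Of 26 genes linked to the repair state of Schwann cells 6 were called lower (23.1%) and 1 higher (3.85%), beside 3.75% and 3.65% of all tested genes, and the count of lower members fell to 1 without day 5 replicate 2. The median log2 fold change was -0.35, and 15 did not overlap downward. Spp1, which encodes the secreted protein osteopontin, had 46.03 and 49.1 FPKM at day 5 and 22.5 and 20.4 FPKM at day 7 (log2 fold change -1.15 ± 0.12, adjusted p = 0.000725), and was the member called in every fit without a library. Gdnf, a neurotrophic factor, had 2.60 and 3.10 FPKM at day 5 and 1.33 and 1.34 FPKM at day 7, a 2.06-fold fall that was not called without day 5 replicate 2 (adjusted p = 0.0647). Ngfr, the p75 neurotrophin receptor, had 360 and 478 FPKM at day 5 and 181 and 304 FPKM at day 7 (-0.80 ± 0.20, adjusted p = 0.0412). For Ngfr the day 7 libraries were both below day 5 but far apart. The call of Ngfr was lost in 3 of the 4 fits without a library, and its log2 fold change ranged from -1.21 to -0.49 over the 4. The call was also lost with DESeq2 and in the fit of only the 4 libraries of days 5 and 7. Gpc1, Gpr83 and Tnc, a proteoglycan, an orphan receptor and a matrix glycoprotein, fell between 1.47-fold and 1.51-fold, and Ncam1, an adhesion molecule, rose 1.70-fold, each call being lost in at least 3 of those fits, and those of Gpr83 and Tnc also in the fit of all 16 libraries (adjusted p = 0.0824 and 0.101). Shh and Bdnf did not pass the test, with log2 fold changes of -0.01 ± 0.42 and 1.06 ± 0.39 at levels under 2 FPKM.

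Other genes named by rank among those that fell included secreted and membrane proteins. Pcsk1, a convertase that cuts prohormones, had the lowest adjusted p of all genes that fell, with 30.03 and 32.1 FPKM at day 5 and 11.6 and 12.6 FPKM at day 7 (log2 fold change -1.36 ± 0.09, adjusted p = 6.92e-05). Pcsk1 had stood at 0.21 and 0.26 FPKM in uncrushed nerve. Serpine2, an inhibitor of thrombin and plasminogen activators, had 223 and 271 FPKM at day 5 and 92.5 and 68.5 FPKM at day 7 (-1.62 ± 0.15, adjusted p = 0.000316), and at day 7 its fitted level differed from uncrushed nerve by -0.14 on the log2 scale. Emb, a membrane glycoprotein, fell 3.40-fold, Fam111a, a protease of replicating cells, fell 3.78-fold, and Tyrp1, a melanosome enzyme, fell 3.60-fold from 23.6 and 34.0 FPKM to 10.5 and 5.54 FPKM. Dstnl1 fell 3.55-fold, and all of these were called in every fit without a library.

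Of 33 interferon-induced genes 16 were called higher (48.5%) and 1 lower (3.03%), beside 3.65% and 3.75% of all tested genes. The median log2 fold change was 0.91, and both day 7 libraries lay above both day 5 libraries for 28. The summed level was 402 and 413 FPKM at day 5 and 643 and 544 FPKM at day 7. Without day 5 replicate 1 the count was 9, without day 5 replicate 2 it was 7, and without day 7 replicate 1 it was 8.

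Oas1a, which senses double-stranded RNA, had 1.08 and 0.89 FPKM at day 5 and 11.1 and 7.06 FPKM at day 7 (log2 fold change 3.22 ± 0.41, adjusted p = 0.00174). Mx1, a dynamin-like GTPase, had 2.16 and 4.82 FPKM at day 5 and 27.8 and 19.3 FPKM at day 7 (2.74 ± 0.35, adjusted p = 0.00172). Mx2 had 10.2 and 15.0 FPKM at day 5 and 40.5 and 37.1 FPKM at day 7 (1.65 ± 0.18, adjusted p = 0.000889). In Oas1a and Mx1, day 7 replicate 1 was the higher of its pair, as it was in the summed level of the list. Irf7, the factor that amplifies type I interferon, rose 4.17-fold, Usp18, which limits signalling at the receptor, rose 4.45-fold, and Ifit3, which acts with proteins that bind viral RNA, rose 4.96-fold. Ifit1 and Rsad2, which also act against viruses, did not pass the test, with log2 fold changes of -1.04 (adjusted p = 0.419) and 1.04 (adjusted p = 0.107). Gbp2, a guanylate-binding GTPase, went the other way, from 112 and 115 FPKM to 69.6 and 65.3 FPKM (-0.75 ± 0.09, adjusted p = 0.00148). At day 7, 26 of the 33 members were above uncrushed nerve, against 13 at day 3, and for Mx1 the day 3 libraries stood at 3.42 and 4.57 FPKM beside 5.53 and 3.25 FPKM in uncrushed nerve.

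The promoters of 3 of the interferon genes that rose are shown, those with the lowest adjusted p that carried the motif searched. The format and source are as for the mitotic genes, and capitals mark TTTCNNTTT, the repeat of the interferon-stimulated response element, on either strand. The windows are chr12:41330346-41330465 (plus strand) for Oas1a, chr1:205800024-205800143 (minus strand) for Irf7 and chr1:241527206-241527325 (plus strand) for Ifit3.
Oas1a: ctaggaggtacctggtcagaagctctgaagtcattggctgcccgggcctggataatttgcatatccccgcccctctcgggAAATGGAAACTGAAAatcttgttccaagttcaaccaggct
Irf7: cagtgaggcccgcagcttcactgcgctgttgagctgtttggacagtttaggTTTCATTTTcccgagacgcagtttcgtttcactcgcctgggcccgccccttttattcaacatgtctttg
Ifit3: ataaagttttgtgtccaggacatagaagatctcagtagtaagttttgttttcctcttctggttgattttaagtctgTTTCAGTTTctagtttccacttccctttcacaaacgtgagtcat
In Oas1a the capitals are 2 overlapping matches on the other strand. Over 250 bases the motif was found in 7 of the 9 called members with a promoter in the table (77.8%) and in 10.1% of all promoters. Of the 11 called cholesterol genes, 8 have a promoter there, and 7 of these (87.5%) held CCAAT while 0 of 8 held TCACNCCAC, the sterol regulatory element, which 0.976% of all promoters held.

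Of 10 genes of MHC class II presentation, which shows peptides to helper T cells, 5 were called higher (50%, beside 3.65% of all tested genes) and none lower. All 10 fold changes were positive, and the median was 0.58. RT1-Bb, a class II beta chain of the rat, had 4.36 and 5.18 FPKM at day 5 and 12.5 and 12.7 FPKM at day 7 (log2 fold change 1.39 ± 0.19, adjusted p = 0.00274), and was called in every fit without a library. Cd74, the invariant chain, had 214 and 242 FPKM at day 5 and 331 and 329 FPKM at day 7, a 1.46-fold rise that was not called without day 5 replicate 1 (adjusted p = 0.0883). The count for the list fell to 1 without day 5 replicate 1. In a fit of all 16 libraries 1 of the 5 calls was kept, that of RT1-Bb, and Cd74 lost its own (adjusted p = 0.225). Of 18 complement members 3 were called higher (16.7%, beside 3.65% of all tested genes). C7, a component of the membrane attack complex, had 113 and 113 FPKM at day 5 and 228 and 235 FPKM at day 7 (1.03 ± 0.09, adjusted p = 0.000193), while Serping1 and Cfp rose 1.46-fold and 1.49-fold and were called in 1 and 0 of the 4 fits. C7 was called in every fit without a library, but all 3 complement calls were lost in the fit of all 16 libraries, where C7 had an adjusted p of 0.24.

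Of 28 tested markers of macrophages and other myeloid cells 1 was called higher and 1 lower. This was 3.57% each way, beside 3.65% and 3.75% of all tested genes. In edgeR 10 of the markers had an unadjusted p below 0.05, beside 3725 of all 15831 tested genes, and DESeq2 called 4. Both day 7 libraries lay above both day 5 libraries for 12 of the 28 and below them for 6, the median log2 fold change was 0.05, and the summed level was 2349 and 2226 FPKM at day 5 and 2378 and 2500 FPKM at day 7. Csf1r, the receptor for the macrophage growth factor, had 52.6 and 50.7 FPKM at day 5 and 42.8 and 53.0 FPKM at day 7 (log2 fold change -0.11 ± 0.10). Cd68, a lysosomal protein of macrophages, had 33.5 and 37.9 FPKM at day 5 and 42.6 and 45.3 FPKM at day 7 (0.30 ± 0.10, adjusted p = 0.102). Ms4a7 rose 1.64-fold and Mrc1 fell 1.29-fold, with calls in 1 and 0 of the 4 fits without a library, and with none in the fit of all 16. Of 32 genes of phagocytosis and lipid clearance 2 were called higher and 2 lower, 6.25% each way. Apoe, the lipid carrier, had 855 and 851 FPKM at day 5 and 1601 and 1523 FPKM at day 7 (0.88 ± 0.08, adjusted p = 0.000343), and Gas6, a bridge between dying cells and their receptors, rose 1.54-fold, both being called in every such fit. Lipa, the lysosomal acid lipase, fell 1.48-fold and was not called without day 5 replicate 2 (adjusted p = 0.0681). Of 25 cytokines and chemokines 2 rose and 2 fell, 8% each way, and 1 of the 4 calls was kept in the fit of all 16 libraries. Ccl2, which attracts monocytes, had 205 and 210 FPKM at day 5 and 155 and 118 FPKM at day 7 (-0.60 ± 0.16, adjusted p = 0.0471), and was called in 1 of the 4 fits and not in the fit of all 16 (adjusted p = 0.143).

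**Figure D3:**
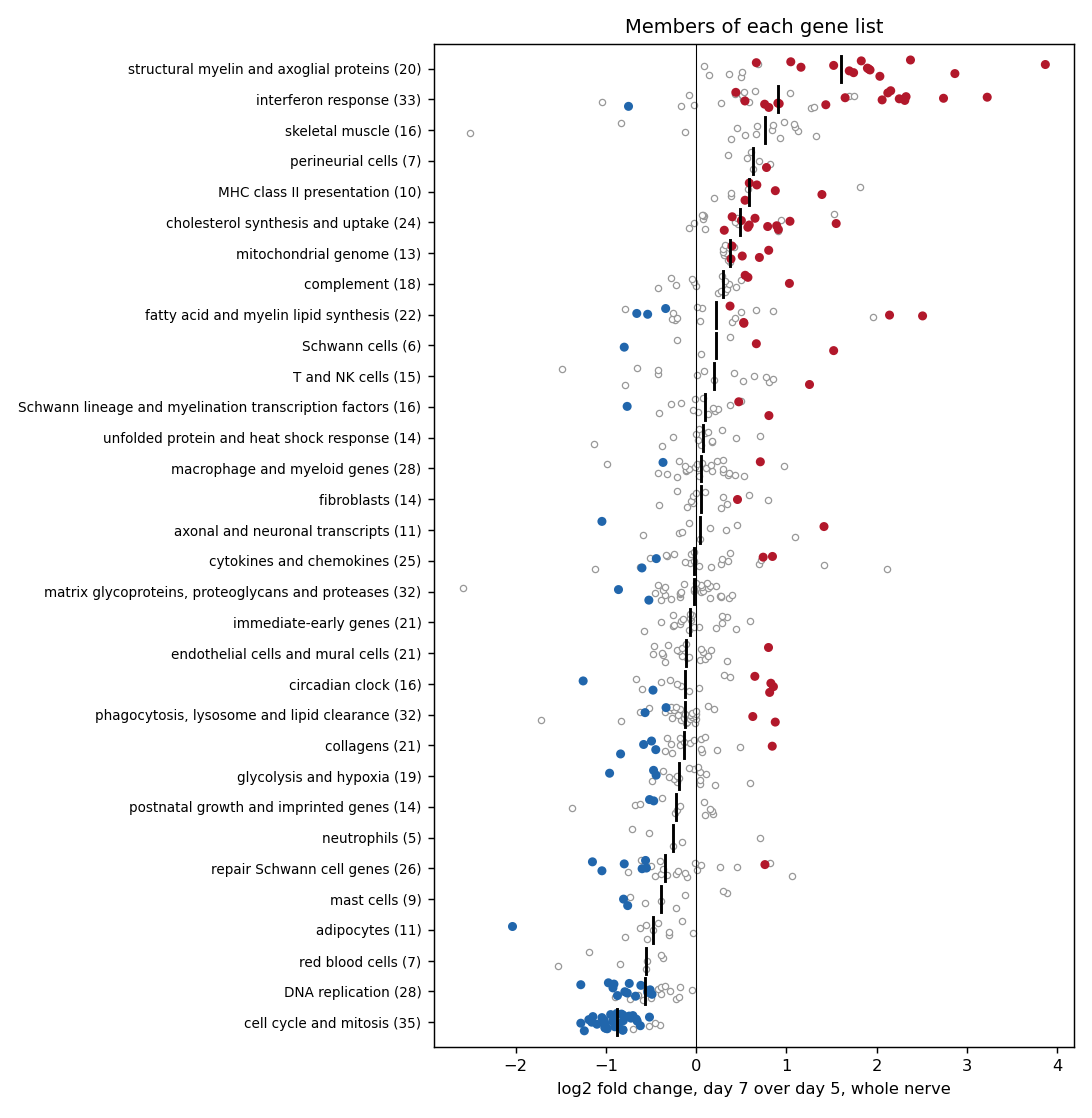
Log2 fold change from day 5 to day 7 of 588 members of the gene lists with at least 5 tested members; filled points passed the test (red higher, blue lower), black bars are medians, numbers in brackets are tested members, and Col1a2 is beyond the axis. Structural myelin proteins have the highest median, 1.61, and mitosis the lowest, -0.88, while the macrophage list is centred near 0.

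Of fibroblast markers 1 of 14 was called higher (7.14%), of endothelial and mural markers 1 of 21 (4.76%), and of T and NK cell markers 1 of 15 (6.67%), beside 3.65% called higher and 7.4% called in either direction over all tested genes, and none of these 3 calls was kept in the fit of all 16 libraries. Of 7 perineurial markers 1 was called, Itgb4, an integrin of barrier cells, which rose 1.71-fold and was called in 1 of 4 fits without a library, yet all 7 had positive fold changes that did not overlap between days, with a median of 0.63. The summed perineurial level was 176 and 194 FPKM at day 5 and 306 and 261 FPKM at day 7. Of 9 mast cell markers 2 were called lower (22.2%, beside 3.75% of all tested genes), and both were called in every fit without a library. Kit, the growth factor receptor of mast cells, had 9.59 and 10.1 FPKM at day 5 and 5.97 and 5.35 FPKM at day 7 (log2 fold change -0.80 ± 0.10, adjusted p = 0.00172), and Cpa3, their carboxypeptidase, had 320 and 250 FPKM at day 5 and 159 and 177 FPKM at day 7 (-0.76 ± 0.12, adjusted p = 0.00563, and 0.191 in the fit of all 16). The mast cell tryptases Tpsb2 and Tpsab1 had positive log2 fold changes of 0.29 ± 0.18 and 0.34 ± 0.23 that did not pass the test, with both day 7 libraries above both day 5 libraries. Of 11 adipocyte markers 1 was called lower (9.09%), Pck1, a gluconeogenic enzyme, and all 11 fold changes were negative. Pck1 had 53.5 and 49.0 FPKM at day 5 and 13.5 and 11.4 FPKM at day 7.

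Skeletal muscle and red blood cell transcripts varied widely between libraries of a day. The 16 skeletal muscle markers summed to 27.0 and 60.6 FPKM at day 5 and to 135 and 12.2 FPKM at day 7, and none was called by edgeR or DESeq2, 1 having an unadjusted p below 0.05, although their median log2 fold change was 0.76. The 7 tested red blood cell genes gave the same counts, with sums of 2348 and 968 FPKM at day 5 and 1293 and 1051 FPKM at day 7.

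The 13 genes of the mitochondrial genome summed to 74944 and 74931 FPKM at day 5 and to 93790 and 104830 FPKM at day 7. Of these genes 5 were called higher (38.5%, beside 3.65% of all tested genes), and DESeq2 called 10. All 13 fold changes were positive with a median of 0.37, and 12 of the 13 did not overlap. COX2, a subunit of cytochrome c oxidase, rose 1.62-fold from 4757 and 4586 FPKM to 7660 and 7444 FPKM (adjusted p = 0.00172). The count for the list was 1 without day 5 replicate 1, and 2 of the 5 calls were kept in the fit of all 16 libraries.

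Of 21 collagens 4 were called lower (19%) and 2 higher (9.52%), Col28a1 and the uncertain Col1a2, beside 3.75% and 3.65% of all tested genes, and the median log2 fold change was -0.14. Col2a1, which rose with the lowest adjusted p of all genes, is not on this list. The count of lower members fell to 1 without day 5 replicate 1, and that of higher members to 0 without day 5 replicate 2. Col4a1, a chain of basement membrane collagen, had 69.3 and 59.1 FPKM at day 5 and 42.7 and 43.2 FPKM at day 7 (log2 fold change -0.58 ± 0.10, adjusted p = 0.00622), a call that was lost without day 5 replicate 1 (adjusted p = 0.0617). Col11a1 fell 1.79-fold and was called in 2 of 4 fits without a library. Of 32 matrix glycoproteins, proteoglycans and proteases 2 (6.25%, beside 3.75% of all tested genes), Mmp19 and Adamts1, were lower and none higher. Neither was called in more than 1 of the fits without a library.

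The direction of the change from day 5 to day 7 was set against the earlier response to crush, taken from whole nerve at day 3 and without crush. Both contrasts share no library but come from the same fit of 8 libraries, with 1 estimate of spread. At day 3, 3654 of the 15831 genes were called higher than in uncrushed nerve (23.1%) and 3558 lower (22.5%). Of the genes higher at day 3, 406 were called lower at day 7 than at day 5 (11.1%) and 87 higher (2.38%), beside 3.75% and 3.65% over all genes. Of the genes lower at day 3, 351 were called higher (9.87%) and 76 lower (2.14%). With each contrast fitted on its own 4 libraries, these 406 and 351 genes became 341 and 283. Of the 8619 genes not called at day 3, 140 were called higher and 112 lower.

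The shares were larger among the genes with the largest early response. Of 301 genes at least 8-fold higher at day 3, 100 were called lower between day 5 and day 7 (33.2%) and 3 higher, with a median log2 fold change of -0.65. Of 330 genes at least 8-fold lower at day 3, 100 were called higher (30.3%) and none lower, with a median of 0.88. Genes lower at day 3 made up 60.7% of all that were higher at day 7 than at day 5, and genes higher at day 3 made up 68.4% of all that were lower. Over all tested genes the correlation of both log2 fold changes was -0.284, given as a description because genes share libraries within each contrast and are not independent.

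**Figure D4:**
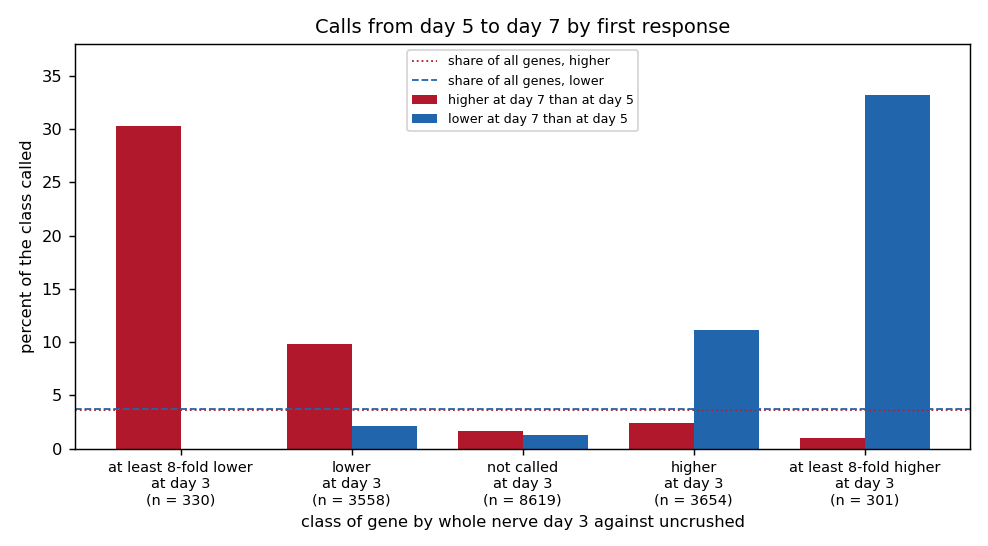
Percent of genes called higher (red) or lower (blue) at day 7 than at day 5, for 5 classes of genes by their call in whole nerve at day 3 against uncrushed nerve; lines mark the shares over all tested genes, and the classes with an 8-fold limit are parts of their neighbours. Genes at least 8-fold lower at day 3 were called higher in 30.3%, and those at least 8-fold higher were called lower in 33.2%.

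The change in whole nerve was set beside that in purified Schwann cells between the same days, in a fit of all 16 libraries with 16829 tested genes. Log2 fold changes of both tissues set side by side are from that fit. In Schwann cells 250 genes were higher at day 7 (1.49%) and 222 lower (1.32%). Of the 578 genes higher in whole nerve, 95 were also called higher in Schwann cells and 2 lower, which is 16.4% of the genes of whole nerve and 38.2% of the genes called higher in Schwann cells. Of the 594 lower in whole nerve, 77 were called lower in Schwann cells and 4 higher, or 13.0% of one list and 34.7% of the other. The median change in Schwann cells was 0.34 on the log2 scale among the genes higher in whole nerve and -0.25 among those lower. In Schwann cells the change was positive for 463 of the 578 (80.1%) and negative for 491 of the 594 (82.7%), beside 48.1% positive and 49.3% negative over all 15831 genes. Over all of these genes the correlation between both tissues was 0.128, given as a description, since genes are not independent.

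The lists differed in how many members were called in Schwann cells. Of the 20 structural myelin genes 14 were called higher there too, with a median log2 fold change of 0.97 beside 1.61 in whole nerve. Of the 35 mitotic genes 7 were called lower in Schwann cells, with a median of -0.33 beside -0.89. None of the 33 interferon genes was called in Schwann cells by edgeR, 7 having an unadjusted p below 0.05 and DESeq2 calling 1, and their median was 0.22 beside 0.90. For Oas1a the change was -0.11 in Schwann cells and 3.22 in whole nerve, and the test of the difference gave an adjusted p of 0.058. In edgeR no member of these 3 lists passed the test of the difference between whole nerve and Schwann cells, so the counts above do not show that the changes differed. At an unadjusted p below 0.05 the test of the difference was passed by 11 structural myelin, 26 mitotic and 14 interferon genes, and DESeq2 called 3, 8 and 3 of them.

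The difference itself passed the test for 53 of 16829 genes (0.315%), 27 with the change in whole nerve higher and 26 with it lower, and 2059 genes had an unadjusted p below 0.05. This number depended on the libraries, from 5 without Schwann cell day 7 replicate 1 to 83 without Schwann cell day 7 replicate 2. Cryab rose in whole nerve with a log2 fold change of 1.63 and had 0.03 in Schwann cells, a difference of 1.59 (adjusted p = 0.0069). Smc4, a subunit of condensin, fell by 1.04 in whole nerve and had 0.10 in Schwann cells (adjusted p = 0.0065). Nr1d1, a repressor of the circadian clock, had 16.8 and 18.2 FPKM at day 5 and 6.48 and 8.22 FPKM at day 7 in whole nerve, a log2 fold change of -1.26, while in Schwann cells its log2 fold change was 0.61 (adjusted p = 0.028 there and 0.0012 for the difference).

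For the next genes the change in Schwann cells passed the test. Gypc, a membrane glycoprotein, had a log2 fold change of 2.76 in Schwann cells and -0.13 in whole nerve, and Sema5a, a guidance molecule, had 2.42 and 0.24. Both started low in Schwann cells at day 5, Gypc at 0.51 and 0.77 FPKM and Sema5a at 0.99 and 0.67 FPKM. In whole nerve at day 5 Gypc had 23.4 and 24.3 FPKM and Sema5a 14.3 and 15.8 FPKM. The basement membrane collagens Col4a1 and Col4a2 had log2 changes of -0.59 and -0.28 in whole nerve and rose by 0.76 and 1.08 in Schwann cells, and Col4a1 was thus called in both, in opposite directions. Fyb, an adaptor of blood cells, fell in Schwann cells with a log2 fold change of -1.87 and had -0.23 in whole nerve. The macrophage genes of the list summed to 70.2 and 52.2 FPKM in Schwann cell libraries at day 5 and to 40.2 and 39.7 FPKM at day 7. The fibroblast genes summed to 8.59 and 7.89 FPKM and then to 8.37 and 8.48 FPKM. In whole nerve at these days both sums were far higher, at 2226 to 2500 FPKM for macrophage genes and 711 to 904 FPKM for fibroblast genes. The part of other cell types in these differences was not tested.

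**Figure D5:**
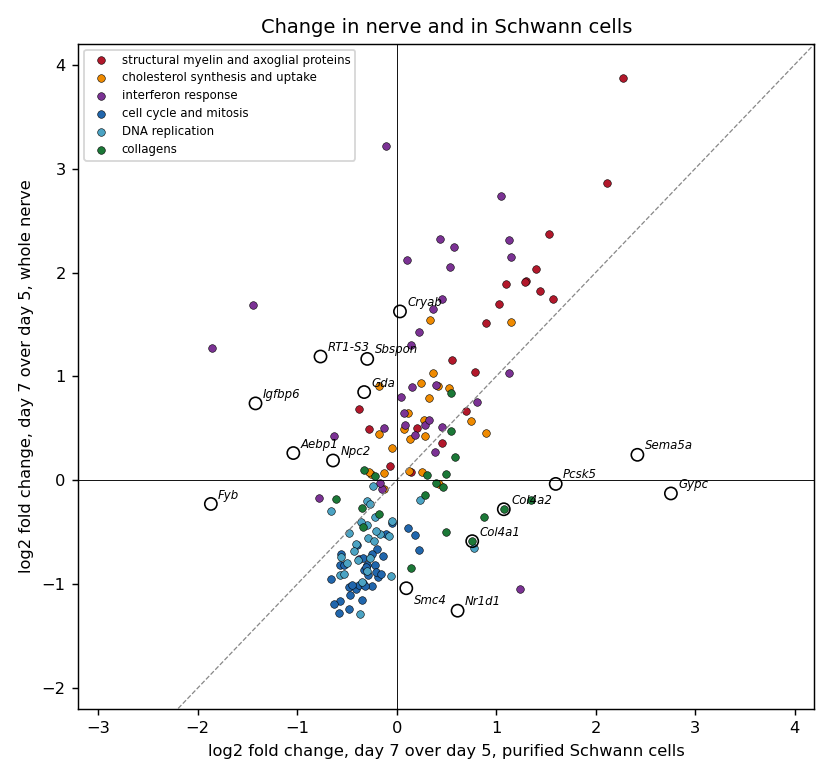
Log2 fold change from day 5 to day 7 in purified Schwann cells (x axis) and in whole nerve (y axis) for members of 6 gene lists (colours), Col1a2 being beyond the axes; open circles name 15 genes whose change differed between both in the test of the difference, and the dashed line marks equal change. Structural myelin genes lie at the upper right, genes of mitosis lie below 0 on the y axis, and interferon genes lie mostly above the dashed line.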

How the data were processed

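RNA-seq values of 4 whole nerve libraries, 2 at day 5 and 2 at day 7, were compared. Reads were aligned by the authors to the assembly Rnor_6.0 with STAR, and RSEM gave the deposited expected counts, which are not normalized. The deposited FPKM was also made by the authors with RSEM. Columns with values of other samples numbered 0. The deposited TPM was not used here.

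After rounding of the expected counts, edgeR 4.0.16 (R 4.3.3) ran its quasi-likelihood test with TMM normalization, filterByExpr and Benjamini-Hochberg adjustment over all tested genes at 0.05. The main contrast came from a fit of the 8 whole nerve libraries, which gives 4 groups 1 estimate of spread, and the comparison with Schwann cells from a fit of all 16. Standard errors were taken from each log2 fold change and its F statistic. Fitted percentages of uncrushed nerve are from the same fit. The fits were tested on simulated data.

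The 33 gene lists and the members named were chosen with earlier results of these data known, so no adjustment over a list alone is given. Named were, in each direction, the 12 called genes with the lowest adjusted p and a mean of at least 1 FPKM, the 12 with the largest fold and at least 5 FPKM, the 8 with the lowest adjusted p for the difference from Schwann cells, and members of the lists. Some genes that meet this rule are not reported here.

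Alternatives were DESeq2 1.42.0, upper quartile normalization, no filter, at least 10 counts in every library, only 4 libraries, all 16 libraries, a replicate block, a 2-fold limit and leaving out each library. Motifs were searched with Python 3.11.15 in RefSeq promoters of GRCr8, 250 bases before the start, and plots drawn with matplotlib 3.10.9. Depth was taken as the total of expected counts per library.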

Additional observations from a re-analysis of the deposited data

Results flagged for a closer look

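A test of the interaction between tissue and day, in a fit of all 16 libraries, picked out 53 genes whose change from day 5 to day 7 differed between whole nerve and purified Schwann cells. The values below are the log2 change in whole nerve minus the log2 change in Schwann cells, for the named genes of this set.

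The difference was negative, so that the gene fell more or rose less in whole nerve, for 13 named genes. They were Gypc (-2.88), Sema5a (-2.17), Nr1d1 (-1.87), the matrix gene Postn (-1.79), the convertase Pcsk5 (-1.63), Sparcl1 (-1.54) and the collagens Col3a1 (-1.54), Col4a2 (-1.36) and Col4a1 (-1.35). Genes of cell division were also among them, with Sgo2 (-1.25), Smc4 (-1.14) and Mastl (-0.89), as was the cadherin Cdh2 (-0.89). Levels in the 2 tissues were unlike for some of these genes. At day 5 Postn had 623 and 493 FPKM in whole nerve and 30.9 and 25.6 FPKM in Schwann cells. Col3a1 had 2543 and 2417 FPKM and 46.2 and 37.2 FPKM, while Nr1d1 was higher in Schwann cells, at 22.25 and 25.2 FPKM beside 16.8 and 18.2 FPKM.

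The difference was positive for H3f3c (2.66), a histone gene with similar copies, Igfbp6 (2.16), which binds insulin-like growth factors, the MHC class I gene RT1-S3 (1.96), Fyb (1.64), Cryab (1.59), Sbspon (1.46), Aebp1 (1.301), Gda (1.18), Gpnmb (0.96), a glycoprotein of phagocytes, and the lysosomal cholesterol carrier Npc2 (0.83). Igfbp6 had a log2 fold change of 0.74 in whole nerve and of -1.42 in Schwann cells, with an adjusted p of 0.022 for the latter, and Gpnmb had -0.13 and -1.09. At day 5 Igfbp6 had 175 and 151 FPKM in whole nerve and 3.82 and 4.45 FPKM in Schwann cells. No cause was tested for any of these differences, and 5 to 83 genes passed when 1 library of days 5 and 7 was left out.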

How the results depend on the processing

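With no filter on low counts 1101 genes were higher and 1146 lower, and with a 2-fold limit 289 and 110. Fits that left out 1 library called between 175 and 435 genes higher and between 148 and 427 lower. Genes higher at day 3 and lower at day 7 numbered 698 without a filter, and the reverse 574. The difference from Schwann cells was called for 231 genes by DESeq2, 629 without a filter and 5 to 83 without 1 library. With the 2-fold limit 11 mitotic, 1 replication, 2 cholesterol and 10 interferon members were called, and without 1 library 4 to 11 replication, 4 to 6 cholesterol and 7 to 15 interferon members. For these counts the cause was not tested, beyond the fewer samples or other genes that the settings use. The 179 named genes were chosen by their calls in these libraries, and the alternatives reuse them, so a kept direction is no independent support. Genes that an alternative did not test were left out of it. None of the 179 changed direction in any of 1966 comparisons with an alternative. Of these values 1622 kept their side of the threshold and 344 lost the call, 92 of them without day 5 replicate 2, 31 with all 16 libraries in the fit and 16 with only the 4 of days 5 and 7, and 81 of the genes were called in all 4 fits without a library.

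The labels do not say whether day 5 and day 7 samples with the same replicate number are linked. The correlation of their replicate differences was 0.026, which does not settle it. With a replicate block 680 genes were higher and 747 lower, 1154 of them shared with the 1172 calls reported, and none of the 179 named genes lost its call.

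With 2 pooled samples a day, changes of low transcripts and of lists that vary between pools, such as muscle, could not be resolved, and a call that missed the threshold does not show equality. DESeq2 called 633 genes higher and 745 lower.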

Other observations

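Genes of the circadian clock moved in both directions. Of 16 tested members 4 were called higher (25%) and 2 lower (12.5%) at day 7, beside 3.65% and 3.75% of all tested genes, and the count of higher members fell to 0 without day 5 replicate 2. Nr1d1, a repressor of the clock, fell 2.38-fold, while Arntl, the activator that it represses, had 6.24 and 4.86 FPKM at day 5 and 9.61 and 9.54 FPKM at day 7, a 1.76-fold rise (adjusted p = 0.0139, edgeR). Cry1 rose 1.81-fold, Hlf 1.77-fold and Per3 1.57-fold, and Bhlhe41 fell 1.39-fold. Nr1d1 was the member called in every fit without a library, Hlf lost its call without day 5 replicate 2 (adjusted p = 0.0568) and, like Bhlhe41, in the fit of all 16 libraries, and the hour of collection was not given in the sources used here.

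Of 19 genes of glycolysis and hypoxia 3 were called lower (15.8%, beside 3.75% of all tested genes) and none higher, with a median log2 fold change of -0.19. Ldha, the lactate dehydrogenase subunit, had 832 and 872 FPKM at day 5 and 654 and 603 FPKM at day 7, a 1.36-fold fall, Pgam1 fell 1.39-fold and Pfkfb3 fell 1.94-fold. None of the 3 was called in more than 1 of the 4 fits without a library. Of 14 imprinted and postnatal growth genes 2 (14.3%), Plagl1 and Peg3, were lower by 1.43-fold and 1.39-fold, each called in 2 of 4 such fits. Of 11 axonal and neuronal transcripts 1 was called in each direction (9.09%, beside 3.65% higher and 3.75% lower over all tested genes). In whole nerve the list summed to 174 and 210 FPKM at day 5 and to 180 and 110 FPKM at day 7. In purified Schwann cells it summed to 311 and 210 FPKM at day 5 and to 269 and 263 FPKM at day 7. Which cells hold these transcripts was not tested. Uchl1, a ubiquitin hydrolase of neurons, fell from 22.4 and 20.3 FPKM to 8.41 and 12.3 FPKM, losing its call without day 5 replicate 1 (adjusted p = 0.0654), and Stmn2, a protein of growing axons, rose from 1.59 and 2.05 FPKM to 3.69 and 6.08 FPKM, being called in 1 of the 4 fits. Of 21 immediate-early genes none was called by edgeR, 2 had an unadjusted p below 0.05 and DESeq2 called 1. Of 14 genes of the unfolded protein and heat shock response none was called, 3 had an unadjusted p below 0.05 and DESeq2 called 1. Neutrophil markers (5 tested) gave no call, no unadjusted p below 0.05 and no call by DESeq2, and of 8 listed B cell markers 1 was tested, Cr2, a complement receptor, which had a log2 fold change of -1.72 ± 0.52 (edgeR, adjusted p = 0.0736, unadjusted p = 0.0075), with both day 7 libraries below both day 5 libraries, and was not called by DESeq2 either.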
